A study of Mus musculus with 8 samples.

Results

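The voltage-gated potassium channel genes other than the Kcnq genes were followed in mouse medial prefrontal cortex after a single fear conditioning session. The set was chosen by gene family, from the channel's pore-forming subunits to the proteins that bind them, and its 34 genes were all present among the 22609 rows of the deposited table. All 34 passed the filter on low values (a mean of 1 or more) and were tested. The mice were of the strain B6.SJL and 3 months old, and the tissue was the anterior cingulate part of the medial prefrontal cortex from both hemispheres. In the fear conditioning group (4 samples), mice explored a chamber for 3 min, received 2 foot shocks of 0.8 mA and 2 s set 30 s apart, and stayed 15 s more. Context controls (4 samples) saw the same chamber and received no shock. Tissue was taken 1 h after training in both groups, and no home cage group enters the comparison. The design text calls the samples biological replicates, without saying whether each is 1 animal.

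Voltage-gated potassium channels open when the membrane is depolarised and let potassium leave the cell, which ends the action potential and sets how fast a neuron can fire again. Each channel is made of pore-forming subunits that surround a central pore with a narrow selectivity filter. In cortex the Kv1 family acts mainly along axons, Kv2 at the cell body, Kv3 in fast-firing neurons and Kv4 in dendrites, and accessory proteins set how many channels reach the membrane and how quickly they inactivate.

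The coding sequence around the selectivity filter of the pore-forming and silent subunits is shown first. Members of a family can write the filter itself with different bases, and base content comes up again below. In the longest protein-coding GENCODE M21 transcript of each gene, the filter signature (threonine or serine, a small or hydrophobic residue, glycine, an aromatic residue or leucine, glycine) was found exactly once in each of the 27 channel subunits and in none of the 7 accessory subunits. Each line gives 105 coding bases, 5′ to 3′, with the 15 bases of the signature in capitals. Kcnh3 and Kcnh7 form a pair from the EAG family. Kcnh1 is the member whose groups did not overlap, and Kcng1 is the member with the largest estimated change.
Kcnh3: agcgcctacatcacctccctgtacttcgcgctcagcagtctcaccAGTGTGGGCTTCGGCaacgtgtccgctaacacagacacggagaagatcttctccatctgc
Kcnh7: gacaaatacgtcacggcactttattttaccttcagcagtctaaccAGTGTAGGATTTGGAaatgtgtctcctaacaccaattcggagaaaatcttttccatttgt
Kcnh1: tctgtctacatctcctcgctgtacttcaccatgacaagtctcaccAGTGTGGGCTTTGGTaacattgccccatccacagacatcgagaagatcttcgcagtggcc
Kcng1: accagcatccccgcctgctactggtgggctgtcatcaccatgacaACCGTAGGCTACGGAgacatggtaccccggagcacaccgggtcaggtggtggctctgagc
On GRCm38 these windows lie at chr15:99232884-99232988 (plus strand), chr2:62777298-62777402 (minus strand), chr1:192337709-192337813 (plus strand) and chr2:168262596-168262700 (minus strand), in the order shown, and each falls inside 1 coding exon. The GC content of the window was 57.1% in Kcnh3 and 39.0% in Kcnh7. Outside the signature these windows also differ in some of the residues they encode, so they are not 1 peptide written in different bases.

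Unless stated otherwise, a value below is a scaled read count, in which each sample's gene reads were multiplied by 1 factor with no correction for length, and a pair of values joined by ± is mean ± SD of 4 samples, controls first. Gene reads recovered from the values ranged from 1992452 to 3565356 per sample. The 34 genes held between 5796 and 11835 of those reads. Transcripts that define pyramidal neurons were high in all 8 samples, with Camk2a between 3953 and 6607 and the vesicular glutamate transporter gene Slc17a7 between 1525 and 3162. In deviations from the group means over genes, samples numbered 1 and 2 went together across the groups, as did samples numbered 3 and 4, and several of the channel genes followed that division (given below). Within the fear conditioning group, the chi-square per degree of freedom was 2.50 (replicates 1 and 2) and 7.51 (replicates 3 and 4). It was 8.15 to 23.6 for conditioned pairs across that division. The controls split less cleanly, with 3.54 and 6.36 inside the division and 6.30 to 12.9 across it. There replicate 4 was at 6.30 against replicate 2 and 6.36 against replicate 3. Read depth, which also enters this statistic, differed between samples.

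None of the 34 genes passed the test after fear conditioning. In limma, 0 of the 34 genes had an adjusted p under 0.05, beside 0% of the 14704 genes tested, and 0 of the 34 had an unadjusted p under 0.05, beside 2.7% of all genes. edgeR and DESeq2 on recovered reads also called 0 of the 34. Most members nevertheless had a higher mean log2 value after conditioning, 25 of 34 (73.5%) beside 51.8% of all genes tested. The median log2 change of the 34 was 0.12, beside 0.0095 over all genes tested. Without context control replicate 4 that median was 0.060, and under quantile normalization it was 0.061. With 1 sample left out, the number of higher members lay between 18 (without context control replicate 3 or 4) and 27 (without context control replicate 1 or 2). With the replicate number as a block, limma again called 0 of the 34, and 1 of them, Kcng1, had an unadjusted p under 0.05 (adjusted p = 0.997), beside 4.04% of all genes.

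**Figure D1:**
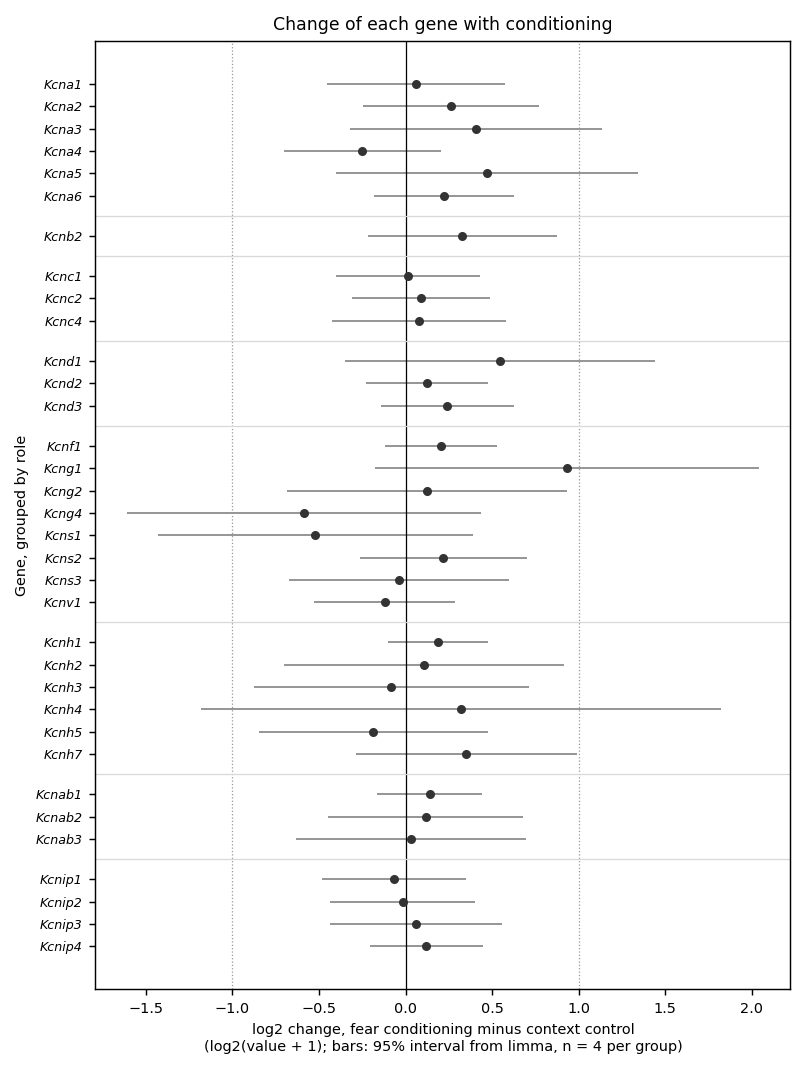
Log2 change of each of the 34 genes (horizontal axis, fear conditioning minus context control on the log2(value + 1) scale) with its 95% interval from limma, n = 4 per group, grouped by role on the vertical axis; dotted lines mark a 2-fold change either way. Every interval crosses 0, 25 of the 34 points lie to the right of it, and 27 of the intervals stay between the dotted lines.

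The intervals show what size of change these samples leave possible. For 27 of the 34 members (79.4%) the 95% interval lay inside a 2-fold change in either direction, where 61.5% of all genes tested did so. The genes tested include means down to 1, while the lowest member mean was 10.2 (Kcnd1), and these shares were not matched for level. The interval of Kcnab1 ran from -0.16 to 0.44 on the log2 scale and that of Kcnh1 from -0.10 to 0.48. The intervals that reached past 2-fold belonged to Kcna3, Kcna5, Kcnd1, Kcng1, Kcng4, Kcns1 and Kcnh4. Of these, all but Kcna3 and Kcns1 had fewer than 10 reads in at least 1 sample.

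Cell type markers also differed in mean between the groups, and their part in the values of the channel genes was not tested. In bulk tissue, fewer cells of a type and less RNA per cell cannot be told apart. Pyramidal neuron markers had 6 of 7 higher (median log2 change 0.15, summed level 8919 to 11943 in controls and 8461 to 12925 after conditioning). Deep-layer neuron markers had 10 of 10 higher (median log2 change 0.52, summed level 1095 to 1962 in controls and 1370.2 to 2618 after conditioning). Upper-layer markers had 0 of 5 higher (median log2 change -0.22, summed level 1749.9 to 2437 in controls and 1570.0 to 2394 after conditioning). A list of parvalbumin interneuron markers and broader inhibitory neuron genes had 3 of 9 higher (median log2 change -0.08, summed level 2572 to 3019 in controls and 2567 to 3308 after conditioning). Gad1 and Gad2, not particular to parvalbumin cells, averaged 1300 and 941 over all samples, and Pvalb 145, so that sum is mainly theirs. The higher ones were Gad1 (0.026), Tac1 (0.028) and Erbb4 (0.74), while Pvalb, Syt2, Cox6a2, Pthlh, Btbd11 and Gad2 were lower. Within replicates 1 and 2, then within replicates 3 and 4, the median was 0.087 and 0.92 for deep-layer and -0.013 and -0.42 for upper-layer markers. In the same order it was 0.22 and 0.22 for pyramidal markers and -0.27 and 0.12 for the interneuron list. Bcl11b, Tle4, Rprm and Syt6 were lower with conditioning within replicates 1 and 2, and the other deep-layer markers were higher there. Neuronal lists thus went in both directions and their sums overlapped between groups, whereas each glial and vascular marker had the lower mean log2 value after conditioning. Astrocyte markers had 0 of 7 higher (median log2 change -0.33, summed level 5828 to 7965 in controls and 4579 to 5789.9 after conditioning), and oligodendrocyte markers had 0 of 8 higher (median log2 change -0.49, summed level 2321 to 8597 in controls and 2644 to 4169 after conditioning). The astrocyte sums did not overlap between groups, and the highest oligodendrocyte sum was that of context control replicate 3. Oligodendrocyte precursor markers had 0 of 6 higher (median log2 change -0.30, summed level 740.0 to 1095 in controls and 609 to 873 after conditioning), microglial markers 0 of 6 higher (median log2 change -0.31, summed level 1163 to 1395 in controls and 978 to 1208 after conditioning), and endothelial and mural cell markers 0 of 7 higher (median log2 change -0.46, summed level 994 to 1327 in controls and 740.2 to 1053 after conditioning). Striatal markers, a check on the dissection, had 3 of 7 higher (median log2 change -0.28, summed level 637 to 1037 in controls and 644 to 819.9 after conditioning). Within replicates 1 and 2, then within replicates 3 and 4, the median was -0.097 and -0.56 for astrocyte and -0.086 and -0.56 for microglial markers. In the same order it was -0.64 and -0.42 for oligodendrocyte and -0.12 and -0.38 for oligodendrocyte precursor markers. For endothelial and mural cell markers it was -0.39 and -0.53, and for striatal markers it changed sign, -0.47 and 0.38. Drd2 was at 0 in context control replicate 3 and Nxph4 in context control replicate 4. No marker of these lists was at 0 in all samples, and 0 passed limma's adjusted threshold. An unadjusted limma p under 0.05 was reached by 3 of 10 deep-layer markers and 1 of 9 genes of the interneuron list (Erbb4). It was also reached by 2 of 7 striatal, 2 of 7 astrocyte, 2 of 6 oligodendrocyte precursor and 2 of 7 endothelial and mural cell markers. In the other marker lists the count was 0. The share over all genes tested was 2.7%.

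Kcnh1, which encodes the EAG1 channel of the ether-a-go-go family, was the only member whose groups did not overlap. It read 519, 431, 521 and 549 in the controls, in the order of replicates 1 to 4 used throughout, and 586, 565, 556 and 586 after conditioning. Every conditioned sample lay above every control, and the closest were context control replicate 4 and fear conditioning replicate 3. The groups' means were 505 ± 51.1 and 573 ± 15.04 (SD, n = 4), and the log2 change of 0.19 with a standard error of 0.13 did not pass limma (adjusted p = 1.0). Without context control replicate 2 the change was 0.11. After a correction of each library for transcript GC content, the groups of Kcnh1 overlapped, and those of 2 other members, Kcnd1 and Kcnab2, did not. That is 2 of 34 with every conditioned sample the higher, beside 1.5% of the GC-corrected genes (3.29% with groups apart in either direction), and 0 of the 34 passed limma in that fit. One member in 34 is 2.94%, beside 1.92% of all tested genes whose groups did not overlap and 0.979% with every conditioned sample the higher.

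The other EAG family genes gave no common direction. Kcnh7, coding for the ERG3 channel, was 73.7 ± 15.5 in controls and 98.4 ± 34.3 after conditioning, a log2 change of 0.35. Kcnh5, coding for EAG2, was 74.9 ± 1.88 and 70.7 ± 27.2, where 3 conditioned samples read 73.0 to 96.9 and fear conditioning replicate 3 read 32.8. Kcnh2, coding for ERG1, was 48.9 ± 20.7 and 51.8 ± 17.6. Kcnh3 and Kcnh4, which encode channels of the ELK branch, were 231 ± 68.4 and 239.9 ± 132, and 12.5 ± 11.2 and 12.9 ± 7.55. Kcnh4 rested on 2 to 22 reads per sample. For these ELK and ERG1 genes the spread within a group exceeded the difference between groups.

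Kv1 genes encode the Shaker-type subunits that help set the excitability of axons. Kcna1, with the highest level per kb of the family, read 772, 631, 953 and 531 in controls and 603, 515, 931 and 1009 after conditioning. The groups overlapped almost wholly, and the log2 change of 0.061 with a standard error of 0.24 was near 0. It was -0.012 under quantile normalization and lay between -0.092 and 0.23 with 1 sample left out, with a negative sign without context control replicate 4 or fear conditioning replicate 3 or 4. Kcna6 was 625 ± 102 and 737 ± 181, and Kcna2, which often joins Kcna1 in the same channel, was 165 ± 32.7 and 204 ± 69.0. In Kcna2 the highest value, 301, was in fear conditioning replicate 4, and 3 of the 4 conditioned samples lay within the range of the controls. Kcna4, which gives a rapidly inactivating current, was the only Kv1 member with a lower mean after conditioning, 144 ± 24.8 against 122 ± 22.9. Kcna3 (28.6 ± 11.3 and 37.2 ± 9.82) and Kcna5 (9.74 ± 3.89 and 13.1 ± 1.12) were low. In the RefSeq annotation Kcna5, Kcna1 and Kcna6 are consecutive protein-coding genes, as are Kcna3 and Kcna2.

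Kcnb2, the only Kv2 gene in the set, codes for a delayed rectifier subunit. It read 76.4, 53.7, 77.6 and 67.6 in controls and 71.8, 110.1, 62.9 and 108 after conditioning. Fear conditioning replicates 2 and 4 were above all controls, while replicates 1 and 3 fell among them. Its log2 change of 0.33 with a standard error of 0.25 gave an interval of -0.22 to 0.87, and the change was 0.21 without fear conditioning replicate 2 or 4 or context control replicate 2.

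Kv3 channels open only at strong depolarisation and close quickly, which lets fast-spiking interneurons fire at high rates. Kcnc2 read 519.9, 638, 688 and 581 in controls and 559, 480.2, 791 and 797 after conditioning, with fear conditioning replicates 3 and 4 highest and replicates 1 and 2 within or below the range of the controls. Its log2 change of 0.088 with a standard error of 0.18 was within that spread, and it was -0.012 without fear conditioning replicate 3 and -0.016 without replicate 4. Kcnc1 was 489.5 ± 108 and 491 ± 88.8, and Kcnc4 was 293 ± 72.2 and 312 ± 85.2. Of all the members, Kcnc1 had the log2 change nearest 0 (0.013). Pvalb, which marks the interneurons known for Kv3 channels, was 154 ± 39.9 and 137 ± 17.96.

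Kv4 subunits carry the A-type current of dendrites, which damps excitatory inputs. Kcnd2 read 527, 494, 574 and 483 in controls and 494, 481, 566 and 750.3 after conditioning. Only fear conditioning replicate 4 stood outside the range of the controls on the high side. Its log2 change was 0.12, and -0.016 without that sample. Kcnd3 was 459 ± 54.3 and 551 ± 125 (log2 change 0.24), with fear conditioning replicates 3 and 4 above all controls. Kcnd1 was near the floor, at 8.15 ± 2.72 and 12.2 ± 3.62 from 3 to 13 reads per sample.

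KChIP proteins bind calcium and help Kv4 channels reach the membrane. Kcnip4 read 468, 465, 429.6 and 454 in controls and 423, 456, 489 and 626 after conditioning, so the controls were close together and fear conditioning replicate 4 alone was well above them. Its log2 change was 0.12, and 0.0042 without that sample. Kcnip3, whose product is also known as the transcriptional repressor DREAM, was 394 ± 94.9 and 416 ± 128. Kcnip1 (119.9 ± 10.04 and 116 ± 19.9) and Kcnip2 (114 ± 3.08 and 114 ± 21.7) had log2 changes of -0.065 and -0.017. For Kcnip2 the 4 controls lay between 110.1 and 117, and the conditioned samples spread around them on both sides.

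Kv beta subunits are cytoplasmic proteins with an oxidoreductase fold that bind Kv1 channels. Kcnab2 read 1039, 1143, 678 and 774 in controls and 1249.8, 1358, 896 and 565 after conditioning. Replicates 1 and 2 of both groups were above replicates 3 and 4 of both groups, and that gap was wider than the gap between the groups. Its log2 change of 0.12 with a standard error of 0.26 had an interval of -0.45 to 0.68, and its sign was negative without context control replicate 3 (-0.014) or fear conditioning replicate 1 (-0.0090) or 2 (-0.049). Kcnab1, which speeds inactivation of Kv1 channels, was 467 ± 51.8 and 513 ± 41.2 and varied least of all members over the 8 samples, by 1.33-fold from lowest to highest. Kcnab3 was 81.7 ± 32.8 and 81.8 ± 26.9.

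The silent subunits of the Kv5, Kv6, Kv8 and Kv9 families form no channel alone and modify Kv2 channels. Kcnf1, the most abundant of them per kb, read 939, 1009.9, 728 and 1073 in controls and 1154, 1076, 1108 and 952 after conditioning. Context control replicate 3 was the lowest of the 8, and without it the log2 change of 0.21 was 0.089. Kcnv1 was 786 ± 149 and 724 ± 157, and Kcns2 was 151 ± 27.2 and 179 ± 47.7. Kcng1, which was picked out for description after its values were seen, had the largest log2 change of the 34 and the smallest p among them (unadjusted p = 0.0914). It read 35.7, 75.2, 9.08 and 29.0 in controls and 69.0, 71.6, 62.9 and 33.6 after conditioning, so 3 conditioned samples were high, and 1 control exceeded them all. Its log2 change of 0.93 with a standard error of 0.51 rested on 9 to 56 reads per sample, and context control replicate 3 held the fewest. Kcns1 (40.2 ± 12.3 and 30.1 ± 14.03) and Kcng4 (14.5 ± 4.52 and 10.2 ± 6.48) had lower means after conditioning. Kcns3 (51.2 ± 14.9 and 49.3 ± 11.8) differed by less than the spread within groups. Kcng2 was 13.99 ± 0.867 and 16.1 ± 5.97, with the controls close together and conditioned samples on both sides of them. Of the 8 silent subunit genes, 4 had a positive and 4 a negative log2 change.

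**Figure D2:**
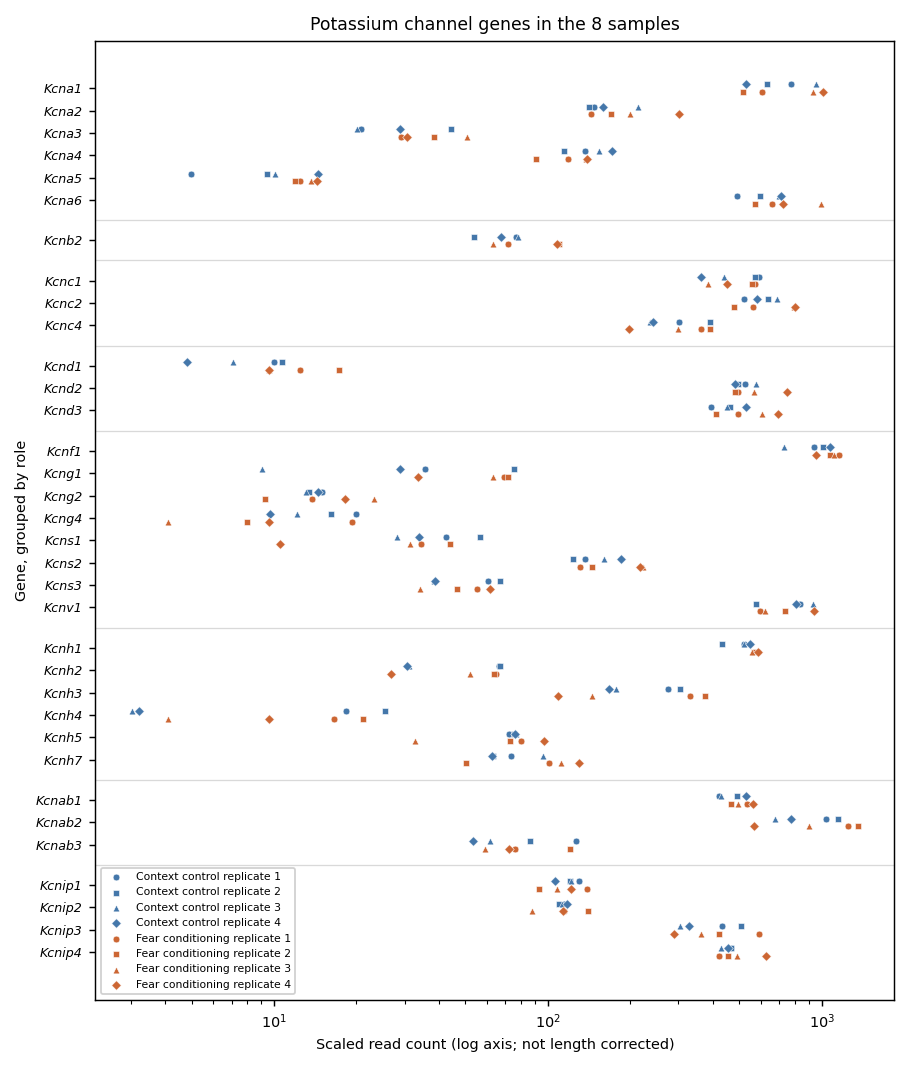
Scaled read count of each gene (horizontal axis, logarithmic, not length corrected) in the 8 samples, with genes grouped by role on the vertical axis; colour marks the group and the symbol marks the replicate number. Blue and orange points overlap for every gene except Kcnh1, and circles and squares (replicates 1 and 2) lie to the right of triangles and diamonds (replicates 3 and 4) for Kcnab2, Kcnh2, Kcnh3 and Kcnh4.

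Levels can be compared between genes only per length, here as mean scaled reads per kb of the longest annotated transcript over the 8 samples. Kcnab2 stood highest at 246, followed by Kcnf1 at 209.9, Kcnip4 at 199, Kcna1 at 184 and Kcnv1 at 172. With SDs per kb of 55.7, 31.3, 7.31, 45.4 and 34.01 among the controls, neighbours in this order did not differ beyond their spread. The lowest were Kcnd1 at 1.93, Kcnh4 at 3.21, Kcng4 at 3.24 and Kcna5 at 3.99 per kb. The highest silent subunit, Kcnf1, and Kcnv1 thus stood above every Kv2, Kv3 and Kv4 pore gene of the set on this scale. Among Kv1 genes the order per kb was Kcna1, Kcna6 (117), Kcna4 (27.7), Kcna3 (17.3), Kcna2 (15.9) and Kcna5. The longest Kcna2 transcript has 11582 bases and that of Kcnb2 14845, and a level per kb depends on the form chosen; which form was expressed was not tested.

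In sums per kb (context controls against conditioned samples), the silent subunits amounted to 453 ± 26.0 against 472 ± 16.2 (SD, n = 4, as for the sums that follow). Kv beta genes summed to 370.3 ± 65.2 against 409 ± 92.9, and KChIP genes to 399.6 ± 41.3 against 425 ± 30.9. Kv1 genes summed to 349 ± 48.0 against 383 ± 96.0. Kv3 genes stood at 263 ± 32.5 against 279 ± 8.12, Kv4 genes at 166 ± 7.31 against 190.4 ± 39.99 and EAG family genes at 171 ± 20.2 against 184 ± 40.6. The groups overlapped in each role group, and the conditioned mean was the higher in each. In Kv4 genes, fear conditioning replicate 4 reached 244 per kb while the 4 controls lay between 159 and 176. As a share of the whole set per kb, Kv1 genes made up 12.2% to 20.52% of the 34 genes across the samples and Kv3 genes 11.0% to 13.3%. The summed scaled value of all 34 genes was 9328 to 9984 in controls and 10182 to 10779.9 after conditioning, without overlap. The ranges of the sum over all genes of the table overlapped, with 2961070 to 3206620 in controls and 3180340 to 3298020 after conditioning. As a share of each sample's recovered reads, which does not depend on the authors' scaling, the 34 genes took 0.291% to 0.332% and 0.320% to 0.337%, and there the groups overlapped.

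**Figure D3:**
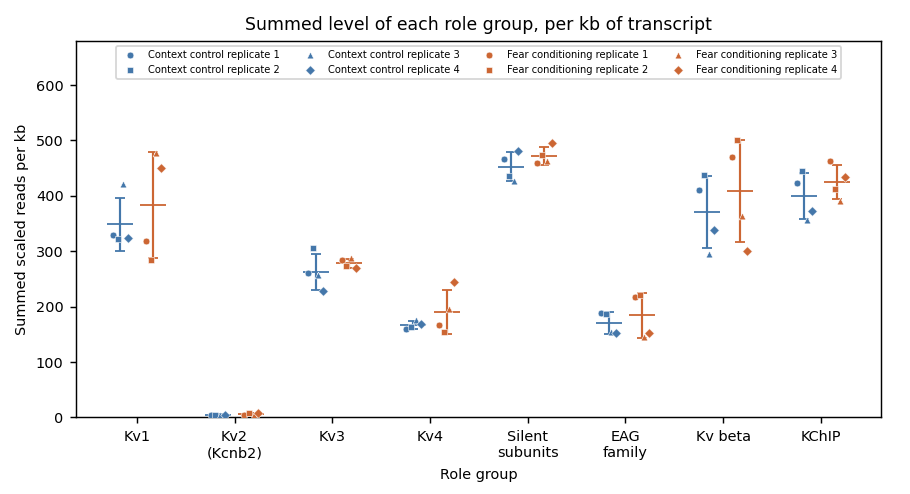
Summed scaled reads per kb of transcript (vertical axis, from 0) for each role group (horizontal axis) in every sample, with the mean and SD of the 4 samples of each group; colour marks the group and the symbol the replicate number. Kv beta totals run from 295 to 500.4 per kb with replicates 1 and 2 above replicates 3 and 4 in both groups.

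The replicate number separated more channel genes than conditioning did. In 10 of the 34 members (29.4%) all 4 samples numbered 1 or 2 lay above all 4 numbered 3 or 4, beside 14.5% of all genes tested. These were Kcnc1, Kcnc4, Kcnd1, Kcns1, Kcnh2, Kcnh3, Kcnh4, Kcnab2, Kcnab3 and Kcnip3. In 3 members (8.82%), Kcna4, Kcna6 and Kcns2, the order was the opposite, beside 11.5% of all genes. Kcnh3 showed the pattern plainly, with 274 and 304 in context control replicates 1 and 2 and 177 and 167 in replicates 3 and 4. After conditioning the same replicates read 330.0, 375, 145 and 109. The mean of replicates 1 and 2 was 2.14 times that of replicates 3 and 4 for Kcnh3, 1.86 times for Kcnh2 and 1.64 times for Kcnab2. The division was noticed in the data, and the labels do not say what the numbers share.

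Base content moved with this division. Transcript GC content lay between 53.8% and 61.3% (median 58.8%) in the 10 members that were higher in replicates 1 and 2. It lay between 44.8% and 53.3% in the 3 that were higher in replicates 3 and 4, and the median over all tested genes was 49.7%. Tested genes as a whole divided in the same way. Their median GC content was 56.6% where replicates 1 and 2 were higher and 43.8% where replicates 3 and 4 were. The division by GC content was therefore not particular to the channel genes. Of the 20 members at or above 49.7%, 15 had the higher mean log2 value in replicates 1 and 2. Of the 14 below it, 11 had the higher value in replicates 3 and 4. These counts were not made over all genes. Kcng2, at 61.5% the richest member in GC, went the other way with a log2 difference of -0.38 between the sets, from 7 to 19 reads per sample. So did Kcna1 (50.1%, -0.41), Kcna5 (54.3%, -0.46), Kcna6 (53.3%, -0.42) and Kcnh1 (52.4%, -0.083). Below the median, Kcns3 (47.6%, 0.43), Kcnh5 (49.6%, 0.19) and Kcnip1 (47.7%, 0.065) were the exceptions. Some related genes, picked after their values were seen, fell on opposite sides. Not every family did so, and of the Kv1 genes Kcna3, at 60.3%, differed by 0.043. Of the Kv3 genes, Kcnc1, with a transcript GC content of 57.4%, differed by 0.49 between the sets, and Kcnc2, at 45.7%, by -0.37. Of the EAG family genes whose sequences are shown above, Kcnh3, at 61.2%, differed by 1.11, and Kcnh7, at 39.6%, by -0.47. After a correction of each library for GC content, 1 of the 34 members (Kcnip4) was higher in all of replicates 1 and 2, beside 6.81% of the genes that had a GC value. The opposite order held in 5 of the 34 (Kcna5, Kcna6, Kcng2, Kcns2 and Kcnh1), beside 5.94% of those genes. Before the correction these counts were 10 and 3 members.

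**Figure D4:**
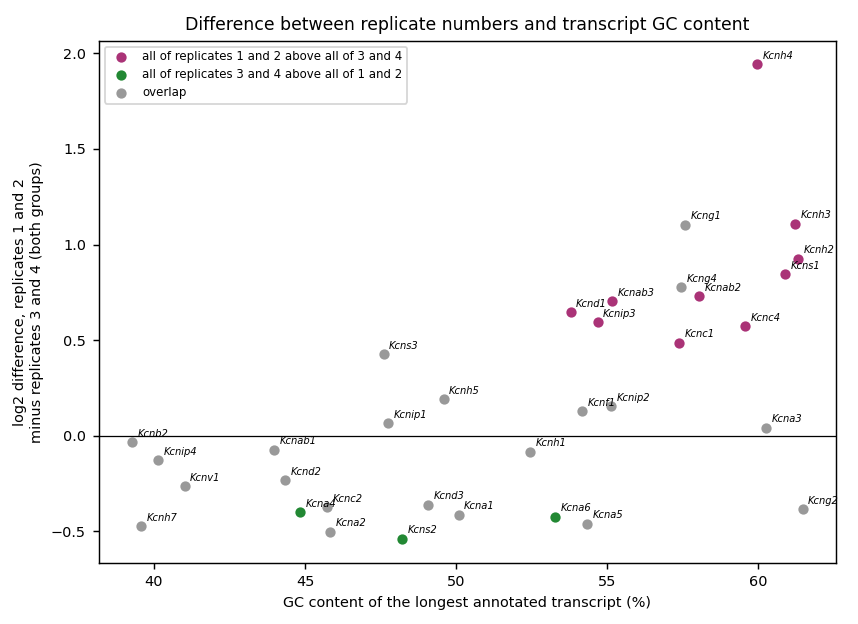
Mean log2 difference between replicates 1 and 2 and replicates 3 and 4 over both groups (vertical axis) against the GC content of the longest annotated transcript in percent (horizontal axis), 1 point per gene. Coloured points are the 13 genes in which these sets of 4 samples do not overlap; the 10 that are higher in replicates 1 and 2 all lie at 53.8% GC or more.

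The estimates with conditioning also varied between these sets. In replicates 1 and 2 the median log2 change of the 34 genes was 0.0723, beside 0.021 over all genes tested. In replicates 3 and 4 it was 0.21, beside -0.017, with 2 samples per group in each set. Of the 34 members, 15 had a positive change in both sets and 4 a negative change in both, and 15 differed in sign. Signs were not counted in this way over all genes. The log2 change of Kcnh1 was 0.28 within replicates 1 and 2, against 0.094 within replicates 3 and 4. In the same order it was, for Kcnf1, 0.19 and 0.22, and for Kcng1 0.43 and 1.44. Kcna1 was -0.32 in the first set and 0.45 in the second.

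Other potassium channel classes and the partners of Kv channels were counted in the same fit, and 0 of their 43 tested genes passed limma's adjusted threshold. An unadjusted limma p under 0.05 was reached by 2 of the 43, Kcnma1 and Kcnj13, beside 2.7% of all genes tested. Calcium- and sodium-activated channel genes had 7 of 9 tested members higher (median log2 change 0.26). Kcnma1, the BK channel gene, was 231 ± 31.4 and 322 ± 59.4, and Kcnn3, an SK channel gene, was 69.7 ± 19.8 and 103 ± 35.5. K2P leak channel genes had 7 of 9 higher (median 0.09), with Kcnk6 at 15.5 ± 5.20 and 26.3 ± 5.63 and Kcnk9 at 22.6 ± 8.24 and 27.7 ± 7.15. Inward rectifier genes had 5 of 11 higher (median -0.00594), with Kcnj13 near the floor at 3.55 ± 1.65 and 0.663 ± 1.33 and Kcnj11, a subunit of ATP-sensitive channels, at 136 ± 53.5 and 81.9 ± 65.4. Partner and scaffold genes had 11 of 14 higher (median 0.085). The accessory gene Kcne4 was near the floor, at 3.801 ± 3.20 and 7.37 ± 2.66 from 0 to 11 reads per sample. Adam22, a receptor at Kv1-rich axons, was at 1083 ± 40.1 and 1203 ± 211. The direction of the median was the same in these classes as in the Kv set, except for the inward rectifiers.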

How the data were processed

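RNA from 8 samples was sequenced, and 1 table with 22609 gene symbols and 8 columns was deposited. Its name says FPKM, but dividing each column by the value of 1 read, found from its low values, gave whole reads for 100% of its nonzero entries (tolerance 0.01). The deposited values are therefore a signal: read counts per gene that the authors scaled by 1 factor in each sample, with no correction for length. TopHat and HTSeq without versions, and hg19, a human build, are named per the submitters' processing notes. For strandedness, annotation and the factor, the sources used here give nothing, so overlapping antisense genes cannot be separated.

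The test was limma 3.58.1 (R 4.3.3, eBayes with a trend) on log2(value + 1) for 14704 genes (mean 1 or more), two-sided, Benjamini-Hochberg adjusted over all of them, threshold 0.05. Fold changes on this scale understate those of low genes. The alternatives on recovered reads used edgeR 4.0.16 and DESeq2 1.42.0, and the fits were tested on simulated data. Intervals cover the spread between samples only, and p-values set the difference between groups against that spread, which may be in part technical. In the main fit, with group as its only term, the spread includes the division of replicates 1 and 2 from 3 and 4. Replicate pairs within groups gave a chi-square per degree of freedom of 2.50 to 23.6, more than sampling noise gives. The labels number the replicates 1 to 4 in both groups, and deviations of same-numbered samples correlated at 0.221 to 0.548 (4 of 4 pairs over 0.1), which met the rule set for pairing, and a fit with the number as a block was run. Different numbers of 1 set (1 with 2, or 3 with 4) correlated at 0.360 to 0.758 and numbers of different sets at -0.702 to -0.258, so the deviations followed the sets and not the single numbers. Length and GC content came from the longest GENCODE M21 transcript, matched for 90.3% of tested genes. The genes, lists and tests were chosen with earlier results of these data known. Every gene of the set is described. Values in each sample were given for members with an unadjusted p under 0.05 or groups that did not overlap, and for the member highest per kb in each role group. Kcng1, Kcnh3, and the pairs Kcnc1 with Kcnc2 and Kcnh3 with Kcnh7, were picked out after their values were seen. In each other channel class the 2 genes with the smallest p were named.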

Additional observations from a re-analysis of the deposited data

How the results depend on the processing

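With edgeR, DESeq2, other pseudocounts (0.1 and 5), no filter or a minimum mean of 10, TMM or quantile scaling, array weights, GC correction and the replicate block, 0 of the 34 genes and 0 of all genes passed. Leaving out 1 sample at a time, 0 to 1 of all genes and 0 of the 34 passed; the 1 call appeared without fear conditioning replicate 4. The block of replicate numbers left the median log2 change of the set at 0.12 and gave 1 member, Kcng1, an unadjusted p under 0.05 (limma, adjusted p = 0.997), and changed no call. Over all genes, unadjusted p under 0.05 was reached by 397 genes in limma, 385 in edgeR and 340 in DESeq2, by 594 with the replicate block, 721 with GC correction, 768 with both, 823 with array weights and 870 with a term for replicates 1 and 2 against 3 and 4. With a sample left out it was 251 to 804. The median of the set was 0.061 to 0.12 over the other settings and 0.060 to 0.17 with a sample left out, and the number of higher members was 23 to 25 and 18 to 27. Among the members highest in their role group, Kcna1 had a log2 change of -0.012 under quantile normalization and -0.11 with array weights. Array weights also gave 0.0054 for Kcnip4, 0.020 for Kcnd2, 0.051 for Kcnc2 and 0.21 for Kcnab2, and quantile normalization 0.029 for Kcnc2, 0.037 for Kcnab2, 0.064 for Kcnd2 and 0.059 for Kcnip4. With a sample left out Kcna1 ran from -0.092 to 0.23, Kcnc2 from -0.016 to 0.23, Kcnd2 from -0.016 to 0.20 and Kcnab2 from -0.049 to 0.37. The cause of these turns was not tested. GC correction and the term for replicates 1 and 2 against 3 and 4 were chosen after seeing the data. Depth limits Kcna5, Kcnd1, Kcng1, Kcng2, Kcng4 and Kcnh4, each with fewer than 10 reads in at least 1 sample.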
